A study of Mus musculus with 6 samples.

Results

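The genes described here were the Myt1 family of transcription factors (Myt1l, Myt1 and St18) and the repressor Rest with its corepressors Rcor1 and Rcor2, 6 genes of the 52390 listed in the count table. They were taken by gene symbol, each matched 1 row, and all 6 passed the filter on low counts. The set was chosen by the symbols given for it, with the measured log2 differences between AP1AR-DT OE and control mice in view, so the difference of each member between the groups is given as a description, with no test.

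The libraries came from 3 control mice and 3 AP1AR-DT OE mice, all male C57BL/6 mice injected at 8 weeks of age in the medial prefrontal cortex (mPFC) with a recombinant adeno-associated virus (AAV). Control mice were wild type and received an AAV vector that carried no insert, and AP1AR-DT OE mice received the vector with AP1AR-DT (AC109347.1), a human long non-coding RNA that has no counterpart in the mouse. A human synapsin I promoter, used for neuronal expression, drove AP1AR-DT, beside an EGFP reporter on the CMV promoter, so cells that took up no virus are part of the same tissue RNA. The OE libraries are called A, B and C because their columns do not say which mouse each came from.

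Myt1l, Myt1 and St18 are zinc finger proteins of 1 family. Myt1l is made by nearly all neurons and holds non-neuronal programs silent, Myt1 acts in neural progenitors and oligodendrocyte precursors and opposes Notch signaling, and St18 is known from neurons and oligodendrocytes. Rest silences neuronal genes outside neurons by binding the RE1 element, and Rcor1 and Rcor2 (CoREST proteins) join it to histone demethylase and deacetylase enzymes. Rest is normally low in neurons while Myt1l is high, so both repressors guard neuronal identity from opposite sides.

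The stretches just upstream of Myt1l, Myt1 and Rcor2 are shown because the Myt1 family reads a short AAGTT core and Rest reads RE1; the letters of both can be looked for in the members' own promoters. They are RefSeq sequences of GRCm38.p6, plus strand, 5′ to 3′, and none includes a base of a GENCODE exon of the gene. Capitals mark the AAGTT core, the RE1 left part AGCACC or the RE1 right part GGACAG, on either strand.
Myt1l, first start, chr12:29528134-29528383: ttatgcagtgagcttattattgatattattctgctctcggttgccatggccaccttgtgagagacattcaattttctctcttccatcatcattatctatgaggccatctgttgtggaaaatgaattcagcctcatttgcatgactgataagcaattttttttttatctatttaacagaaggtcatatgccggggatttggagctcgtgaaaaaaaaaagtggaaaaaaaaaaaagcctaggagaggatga
Myt1, first start, chr2:181763082-181763331: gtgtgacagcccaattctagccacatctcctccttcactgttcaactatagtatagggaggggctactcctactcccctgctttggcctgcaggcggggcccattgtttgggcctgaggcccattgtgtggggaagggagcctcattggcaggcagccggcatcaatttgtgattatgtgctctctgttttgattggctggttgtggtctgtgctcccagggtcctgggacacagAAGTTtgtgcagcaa
Myt1, last start, chr2:181796057-181796306: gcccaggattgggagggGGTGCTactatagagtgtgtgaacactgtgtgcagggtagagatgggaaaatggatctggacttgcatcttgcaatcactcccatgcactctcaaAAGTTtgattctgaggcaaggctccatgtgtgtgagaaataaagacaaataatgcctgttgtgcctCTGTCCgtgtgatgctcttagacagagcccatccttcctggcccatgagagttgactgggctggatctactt
Rcor2, chr19:7267144-7267324: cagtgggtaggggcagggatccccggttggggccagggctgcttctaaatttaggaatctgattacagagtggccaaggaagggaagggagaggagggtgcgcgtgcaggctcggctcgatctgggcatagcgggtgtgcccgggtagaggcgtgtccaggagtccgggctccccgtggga
The first Myt1l start, which is also the start of the gene in GENCODE, held none of these letters in its 250 bases. Nor did the next 2 of its 5 starts, while the last 2, whose windows lie in annotated exons and are not printed, held 1 AAGTT with 1 GGACAG and 2 AAGTT. The first Myt1 start held 1 AAGTT core close to the start site, the second held 1 AAGTT and 1 AGCACC, and the last held 1 AAGTT core, 1 left part and 1 right part of RE1, not joined. The stretch of Rcor2 held none, and 1 GGACAG lay in the annotated exon just beyond it. AAGTT occurred in 35.3%, AGCACC in 13.4% and GGACAG in 18.7% of the 32851 RefSeq promoters read over the same 250 bases, so these matches are common. The joined RE1 core (left part, a gap of 2 bases, right part), which occurred in 0.0457% of promoters, was in none of the 10 promoters of the 4 members that matched by symbol. The 10 promoters likewise held no match to the palindromic core that NRF1 reads, which was in 3.74% of all promoters. St18 and Rest are named only.

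Totals ran from 42061721 to 49957663 counts in the control libraries and from 51374941 to 54668294 in the OE libraries. Some control libraries stood apart in their cell type markers. Summed normalized CPM (raw counts scaled to the library total with TMM factors) of 8 hypothalamic neuron markers were 619 in control 2 against 7.35 to 78.1 in the other 5 libraries. In control 3, 8 choroid plexus markers summed to 3967 CPM against 52.07 to 75.91 elsewhere, 6 thalamic neuron markers to 747.7 against 130.6 to 228.8, and 10 oligodendrocyte markers to 11253 against 5326 to 6816. The labels call the tissue brain. The paper's methods name cortical tissue, and its results and data statement name the mPFC as the source of this RNA. Slc17a7, the vesicular glutamate transporter of cortical excitatory neurons, ranged from 3.856 CPM in control 2 to 463.3 CPM in OE B, so this cortical marker was present in every library at a very unequal level. Mitochondrial genes held 7.198% to 9.86% of counts in control and 5.748% to 6.798% in OE libraries, without overlap, and their part in the results was not tested. No marker of the 12 lists was at 0 in all libraries. AP1AR-DT itself was not analysed here, so the group labels had no check in the targeted gene. In bulk tissue, fewer cells of a type and less RNA per cell cannot be told apart.

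Myt1l was lower in all AP1AR-DT OE libraries. It had 130.1, 119.5 and 122 CPM in controls 1, 2 and 3, and 53.49, 41.11 and 54.87 CPM in OE A, B and C. The lowest control value was above the highest OE value by a wide margin, and the libraries of each group lay close together. The mean was 123.9 ± 5.54 CPM in control mice and 49.82 ± 7.58 CPM in AP1AR-DT OE mice (SD, n = 3 each). The fitted difference was −1.31 on the log2 scale (standard error, SE, 0.129), which puts the OE level at 40.2% of control. Leaving out controls 2 and 3, the libraries with hypothalamic, thalamic and choroid plexus markers, gave −1.38. Control 1 then stood alone and was taken to vary like the OE libraries, here and wherever these 2 libraries are left out.

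St18 was the other member whose groups did not overlap. Its 3 control libraries held 8.874, 12.05 and 13.69 CPM, and OE A, B and C held 5.015, 3.71 and 8.233 CPM. Control 1 and OE C were nearly level, and the spread inside each group was much wider than for Myt1l. Mean St18 was 11.54 ± 2.45 CPM in control and 5.653 ± 2.33 CPM in OE mice (SD, n = 3 each), a fitted log2 difference of −1.03 (SE 0.316). With controls 2 and 3 left out the difference was −0.65, with an SE of 0.441 that rests on the spread of the OE libraries, and with OE C left out it was −1.39.

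Myt1, the remaining family member, showed overlapping groups. Control libraries 1, 2 and 3 had 17.28, 18.33 and 14.99 CPM of Myt1, and OE A, B and C had 14.14, 14.23 and 20.98 CPM. OE C was the highest of all 6 libraries, while OE A and OE B were the lowest. The mean was 16.87 ± 1.71 CPM in control and 16.45 ± 3.93 CPM in OE mice (SD, n = 3 each), with a log2 difference of −0.04 (SE 0.188) that ran from −0.24 to 0.06 as single libraries were left out.

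**Figure D1:**
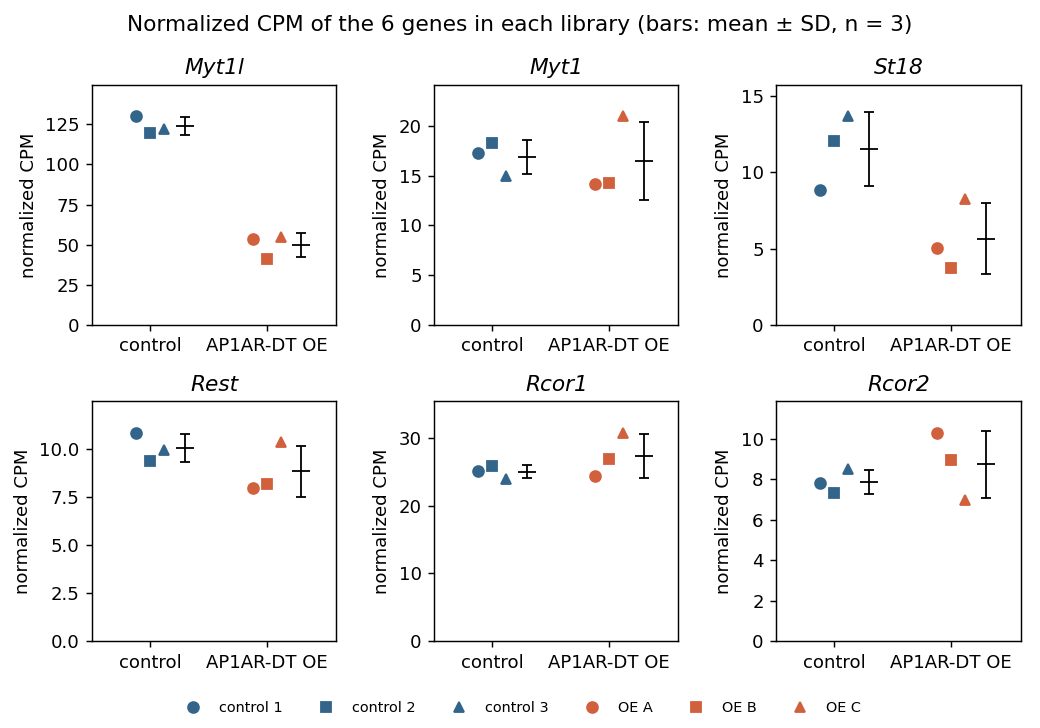
Normalized CPM (y axis, from 0) of Myt1l, Myt1, St18, Rest, Rcor1 and Rcor2 in each control (blue) and AP1AR-DT OE (orange) library, with the mean ± SD of each group (n = 3) at its right. Myt1l and St18 have no overlap between the groups, while the other 4 genes do.

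Rest itself was low in both groups, at 10.82, 9.378 and 9.95 CPM in controls 1, 2 and 3 and 7.975, 8.143 and 10.35 CPM in OE A, B and C. OE A and OE B lay below all controls, and OE C lay between control 3 and control 1. Mean Rest was 10.05 ± 0.724 CPM in control and 8.822 ± 1.32 CPM in OE mice (SD, n = 3 each). The log2 difference was −0.19 (SE 0.157).

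Rcor1, the scaffold through which Rest recruits the demethylase Kdm1a, had 25.17, 25.84 and 23.92 CPM in control and 24.32, 26.88 and 30.74 CPM in OE libraries A, B and C. OE A fell inside the control range and OE C was the highest library. The log2 difference of Rcor1 was 0.13 (SE 0.119), from means of 24.98 ± 0.975 and 27.31 ± 3.23 CPM (SD, n = 3 each).

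Rcor2, the CoREST protein typical of progenitors and neurons, had 7.841, 7.33 and 8.508 CPM in control and 10.31, 8.941 and 6.975 CPM in OE libraries A, B and C. OE A and B lay above every control and OE C below every control. The log2 difference was 0.15 (SE 0.181), from means of 7.893 ± 0.591 and 8.743 ± 1.68 CPM (SD, n = 3 each). With a correction for GC content it was −0.14, so no direction can be given for Rcor2.

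Among the 6 members, 2 had groups that did not overlap and the same 2 had a log2 difference below −1. Over all 21844 genes tested, 22.4% had groups that did not overlap, and 1.19% of the 13524 genes with a mean of at least 5 CPM had a log2 difference below −1. The members were chosen with this contrast known, and nothing is read from their counts.

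Levels between members were compared as CPM per kilobase (kb) of the longest GENCODE transcript. In control mice Myt1l was highest at 17.2 ± 0.77 CPM per kb, followed by Rcor1 at 4.39 ± 0.171, Myt1 at 3.06 ± 0.31, Rcor2 at 2.80 ± 0.209, St18 at 1.96 ± 0.416 and Rest at 1.43 ± 0.103 CPM per kb (SD, n = 3 each). Myt1 and Rcor2 overlapped in their libraries, as did St18 and Rest, so the order within these pairs was not separated from their spread. Myt1l stood above Rcor1 in every control library, and Rcor1 above Myt1, but with the mean transcript as length Myt1, at 6.58 CPM per kb, was above Rcor1, at 5.94. In AP1AR-DT OE mice Myt1l had 6.92 ± 1.05 CPM per kb, still the highest of the 6 in each library, and St18, at 0.959 ± 0.395 CPM per kb, was below Rest, at 1.26 ± 0.189 CPM per kb, within their spread. With the mean transcript as length St18 was above Rest, at 2.08 against 1.27 CPM per kb in OE mice and 4.24 against 1.44 in control mice.

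The total of the family per kb was 22.7, 22 and 22 CPM per kb in control and 10.8, 8.92 and 12.8 CPM per kb in OE libraries A, B and C. The groups were clearly apart, and most of the gap was Myt1l. Myt1l made up 77.4% ± 2.03 of the family total in control mice and 64.0% ± 4.54 in OE mice, and Myt1 13.8% ± 1.39 and 27.4% ± 3.29 (SD, n = 3 each). The share of Myt1 was larger in every OE library, while its level per kb was 3.06 ± 0.31 in control and 2.99 ± 0.712 in OE mice (SD, n = 3 each). St18 had a share of 8.84% ± 2.01 in control and 8.60% ± 2.03 in OE mice.

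**Figure D2:**
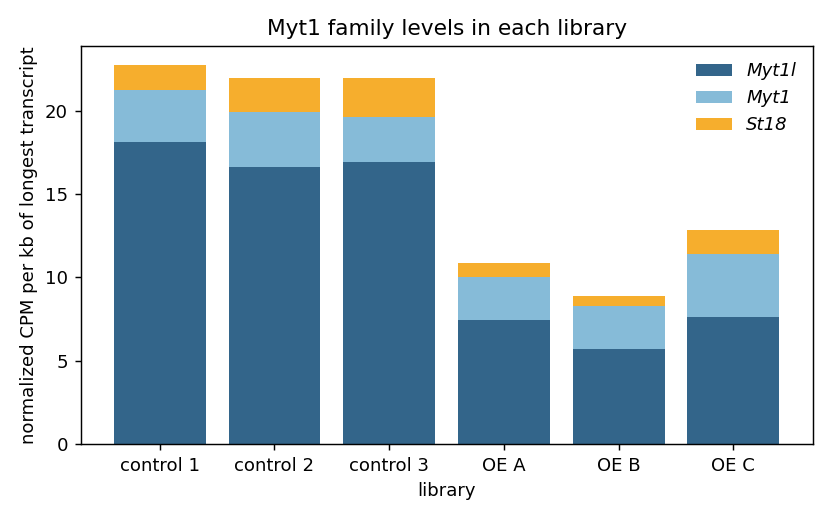
Stacked normalized CPM per kb of longest transcript (y axis, from 0) of Myt1l, Myt1 and St18 in each of the 6 libraries (x axis). The stack is 22 to 22.7 CPM per kb in the control libraries and 8.92 to 12.8 in the OE libraries, and Myt1l is the largest block in all 6.

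The neuron markers differed much less than Myt1l. The summed CPM of 8 neuron markers was 3562 to 4067 in control and 3405 to 3704 in OE libraries, and these ranges overlapped. Per 1000 CPM of these markers Myt1l was 32, 33.5 and 30.5 in control and 15.7, 11.1 and 15.7 in OE libraries A, B and C, again without overlap, a difference of −1.19 in mean log2. The summed CPM of 8 excitatory neuron markers, 1150 to 2104 in control and 1673 to 2899 in OE libraries, overlapped between the groups too.

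In the control libraries St18 followed the oligodendrocyte markers. The control library with the most oligodendrocyte RNA, control 3, also had the most St18, and control 2 was second in both. Per 1000 CPM of 10 oligodendrocyte markers St18 was 1.67, 1.77 and 1.22 in control and 0.936, 0.684 and 1.51 in OE libraries A, B and C, so that the groups overlapped, with a mean log2 difference of −0.63. The part of oligodendrocyte RNA in the St18 difference was not tested.

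Myt1 was set beside 8 markers of oligodendrocyte precursors, which summed to 913.3 to 1082 CPM in control and 953.6 to 1057 CPM in OE libraries. Per 1000 CPM of these markers Myt1 was 16.9 ± 2.65 in control and 16.5 ± 4.81 in OE mice (SD, n = 3 each).

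**Figure D3:**
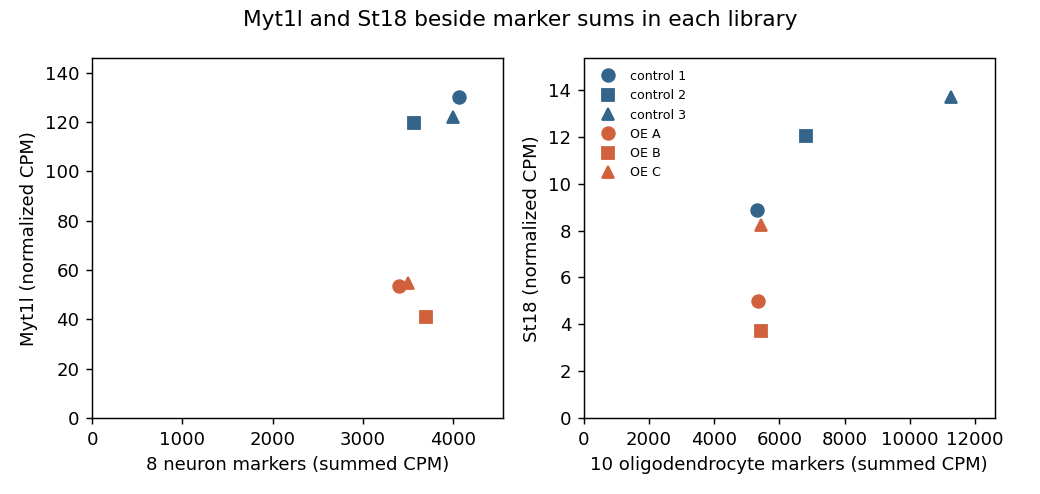
Left, Myt1l (normalized CPM, y axis) against the summed CPM of 8 neuron markers (x axis), and right, St18 against the summed CPM of 10 oligodendrocyte markers, with 1 point per library in control (blue) and AP1AR-DT OE (orange) mice. Myt1l is split into separate groups at similar neuron sums of 3405 to 4067 CPM, while control 3, at 11253 CPM, is far to the right of the other libraries in the St18 panel.

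The members differ widely in structure. In GENCODE vM21 (GRCm38) Myt1l covers chr12:29528384-29923213, 395 kb with 11 annotated transcripts, and St18 covers chr1:6487231-6860940, 374 kb with 13 transcripts. Myt1 (chr2:181763332-181827797, 64.5 kb), Rest (chr5:77265491-77286432, 20.9 kb), Rcor1 (chr12:111039351-111115901, 76.6 kb) and Rcor2 (chr19:7267325-7275225, 7.9 kb) are shorter, and all 6 lie on the plus strand. The 2 members with non-overlapping groups were thus the 2 longest. Protein-coding genes of at least 300 kb had a median log2 difference of −0.18 over 539 genes, against 0.11 over 3885 genes under 10 kb.

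Among genes of at least 300 kb, 10 were called higher (1.86%) and 101 lower (18.7%), where a call needs an edgeR quasi-likelihood P under 0.05 and a log2 difference beyond 0.32 in either direction. Over all genes tested the shares were 5.1% and 7.15%. The part of gene length in the member differences was not tested.

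**Figure D4:**
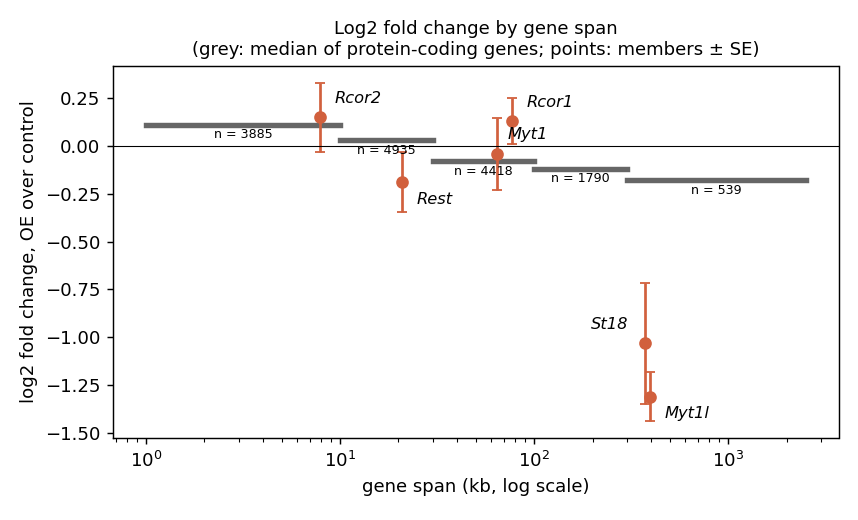
Log2 fold change of AP1AR-DT OE over control (y axis) against gene span in kb (x axis, log scale), with grey bars at the median of protein-coding genes in each span class and orange points for the 6 members (± SE). Class medians run from 0.11 to −0.18, while St18 is at −1.03 and Myt1l at −1.31.

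GC content also moved with the differences. Over 5 equal classes of genes ordered by GC content of the longest transcript, the median log2 difference went from −0.26 in the lowest class to 0.19 in the highest. St18 has a GC content of 41.7%, Myt1l 46.8%, Rest 47.2%, Rcor1 48.4%, Myt1 49% and Rcor2 61.6%. With each library corrected for GC content, the log2 difference was −1.25 for Myt1l (SE 0.117) and −0.82 for St18 (SE 0.283).

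Overlapping genes could add reads to some members, since use of strand in counting was not stated. C630031E19Rik, antisense to Myt1l, held 3, 12 and 75 counts in control and 11, 0 and 4 counts in OE libraries A, B and C, and Gm20208, also opposite to Myt1l, held 53 to 91 counts, against 2216 to 6095 counts of Myt1l itself. Gm46379, a processed pseudogene inside Rcor1 on the other strand, had a mean of 64.2 CPM in control and 63 CPM in OE mice, more than Rcor1. Its part in the Rcor1 level was not tested. No stretch of 100 bases in the longest transcript of any member, Rcor1 included, was shared with a transcript of another gene on either strand.

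The genes most like each member over the 6 libraries were listed by Pearson's r of log2 CPM among 13523 other genes with a mean of at least 5 CPM, as a description of 6 points that share libraries and groups. Closest to Myt1l were Ik (r = 0.996), Tor1b (r = 0.994) and Nfatc3 (r = 0.993). Tor1b had 31.9, 34.4 and 31.6 CPM in control and 10.6, 8.09 and 10.2 CPM in OE libraries A, B and C. Closest to St18 were Zfp24 (r = 0.999), D1Pas1 (r = 0.998) and Spag9 (r = 0.998), and these followed its order from control 3 down to OE B.

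For Rest the most alike genes were Eef1akmt2 (r = 0.992), Rbl2 (r = 0.987) and Hmgxb4 (r = 0.987). Rcor1 was nearest to Chrnb2 (r = 0.985), a nicotinic receptor subunit, followed by Kbtbd2 (r = 0.973) and Acvr1 (r = 0.964). Myt1 was nearest to Gm12988 (r = 0.984), Gm39244 (r = 0.983) and Wnk3 (r = 0.981), and Rcor2 to Exd2 (r = 0.989), Smim26 (r = 0.984) and Acsf2 (r = 0.984). The count of genes with r over 0.95, of 13523, was 134 for Myt1l, 317 for St18 and from 7 to 30 for the other 4. More genes thus followed St18 this closely than followed any other member.

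The wider pathway was read in 5 gene lists of 106 genes, 105 of them tested, with the members left out. At P under 0.05 and a log2 difference beyond 0.32, 11 of the 105 genes were called higher (10.5%) against 5.1% of all genes tested, and 5 were called lower (4.76%) against 7.15%. None of the 105 passed a Benjamini-Hochberg adjusted P under 0.05 in edgeR, against 0.0275% of all genes, while 22 (21%) had an unadjusted P under 0.05, against 15.1% of all genes. DESeq2 put 5 of the 104 it gave an adjusted P (4.81%) under 0.05, against 2.5% of all genes. The median log2 difference of the 105 genes was 0.08, against −0.01 for all genes.

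Of 24 genes of the Rest and CoREST complexes, which include Kdm1a, Hdac1, Hdac2 and Sin3a, none was called higher and 1 lower (4.17%). Over all genes tested 5.1% were called higher and 7.15% lower, and the median log2 difference of the list was 0.03. Groups did not overlap for 6 of the 24, a share of 25% that is near the 22.4% of all genes. Without control 1 the calls were 3 higher and 2 lower, without OE C 2 were lower, and without control 2, control 3 or OE A there was none. The call was Zmym2, a zinc finger protein found with CoREST, at 58.36 ± 3.44 CPM in control and 45.9 ± 2.95 CPM in OE mice (SD, n = 3 each). Its log2 difference was −0.35 (SE 0.097), with a Benjamini-Hochberg adjusted P of 0.295 in edgeR. Of 6 genes that act on the splicing or stability of Rest, 3 (50%) had groups that did not overlap. Of the same 6 genes, 1 was called higher (16.7%), against 5.1% of all genes tested. This was Srrm3, a splicing factor that favors neuronal exons and a truncated form of Rest, which had a log2 difference of 0.41 (SE 0.0957), with a Benjamini-Hochberg adjusted P of 0.295 in edgeR.

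Neuronal genes that carry an RE1 element, the genes Rest silences, went both ways. Of 30 tested, 5 were called higher (16.7%) and 2 lower (6.67%), against 5.1% and 7.15% of all genes tested. The median log2 difference was 0.09. Groups did not overlap for 11 of the 30 (36.7%), against 22.4% of all genes. The higher count was 1 without OE B, 3 without control 3, 8 without control 1 and 2 with the GC correction, and the lower count was 3 without control 1 or control 3. Called higher were Cacna1h, a T-type calcium channel, at 0.82 (SE 0.165), Unc13a, a vesicle priming protein, at 0.34, and Chga, a dense-core granule protein, at 0.33. Slc12a5, a chloride exporter, at 0.35, and Cplx1, which controls vesicle fusion, at 0.48, were also called higher.

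The RE1 genes called lower were Calb1, a calcium buffer, which had 69.1 to 124.9 CPM in control and 46.52 to 63.02 CPM in OE libraries, and Syt4, a vesicle protein, with 200 to 243.8 CPM in control and 149.2 to 188.1 CPM in OE libraries. Neither gene overlapped between the groups. Calb1 had 2811, 5638 and 6241 counts in controls 1, 2 and 3, so its high values were in the 2 libraries that stood apart, and without them none of the RE1 genes was called lower. Cacna1h also had no overlap, with 37.98 to 50.02 CPM in control and 62.96 to 90.09 CPM in OE libraries.

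Among 24 genes of the Notch pathway, which the Myt1 family opposes during neurogenesis, 3 were called higher (12.5%) and 1 lower (4.17%). Over all genes tested these shares were 5.1% and 7.15%. The list had a median log2 difference of 0.16, and groups did not overlap for 7 of the 24 (29.2%), against 22.4% of all genes. Higher were Numbl, a relative of the Notch inhibitor Numb, at 0.55 (SE 0.123), the Notch target Hes5 at 0.51 (SE 0.203) and Hes6, an antagonist of Hes1, at 0.32 (SE 0.13). The lower gene was Maml2, a Notch coactivator, which had 15.76 to 22.38 CPM in control and 9.597 to 12.71 CPM in OE libraries. Leaving out single libraries gave 1 (without OE A) to 5 (without control 2 or OE C) higher calls, 2 without control 1 or OE B, and 2 lower calls without OE B. The 4 called genes thus include both activators and inhibitors of Notch signaling.

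Of 21 proneural and neuronal transcription factors tested, 2 were called higher (9.52%) and 1 lower (4.76%), against 5.1% and 7.15% of all genes tested. The median log2 difference was 0.27, and groups did not overlap for 3 of the 21 (14.3%), against 22.4% of all genes. The higher count was 5 without control 1, 6 without OE C and 1 without control 2 or OE A, the lower count was 0 without OE A or OE B and 2 without OE C, and the median was 0.03 without control 1, 0.05 without control 2 and 0.01 without OE B. Pou3f3 was higher by 0.46 (SE 0.13) and Cux2 by 0.36 (SE 0.139), both known from upper cortical layers. Prox1, a factor of the dentate gyrus and thalamus, was called lower at −1.89 (SE 0.68). Its counts were 553, 1015 and 4660 in controls 1, 2 and 3 and 613, 623 and 593 in OE A, B and C, so the difference rests mostly on control 3, the library with the high thalamic markers.

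GC content moved with these calls too. The 11 genes called higher had a median GC content of 58.3% and the 5 called lower 40.7%. With the GC correction, 3 of the 11 higher calls (Cacna1h, Numbl and Pou3f3) and 3 of the 5 lower calls (Calb1, Maml2 and Prox1) were kept. Cacna1h kept its call in all 13 alternatives, while Cplx1 and Hes6 kept theirs in 7 each. Without controls 2 and 3 the totals were 7 higher and 1 lower, with the spread taken from the OE libraries.

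**Figure D5:**
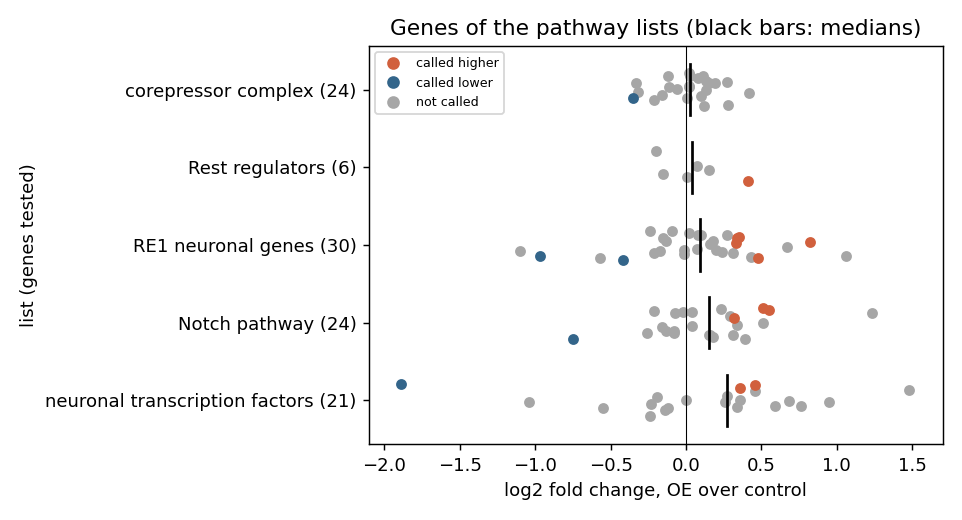
Log2 fold change of AP1AR-DT OE over control (x axis) for each tested gene of the 5 pathway lists (y axis, number tested in parentheses), with genes called higher in orange, called lower in blue and the list median as a black bar. The medians run from 0.03 to 0.27, and 16 of the 105 points are called.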

How the data were processed

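RNA from brain tissue of 3 control and 3 AP1AR-DT OE mice was sequenced (Illumina TruSeq RNA kit, paired-end reads). Per the paper, the authors mapped reads to GRCm38 with Bowtie2 and ran StringTie on GENCODE genes, whose script turned coverage into the deposited whole-number counts, so these counts are not counts of read pairs. The submitters' processing notes name other tools (TopHat2 2.0.4, SAMtools, HTSeq, Cuffdiff, edgeR 2.6.12) and mm9, so table coordinates were not used. Gene IDs were matched to GENCODE vM21 (52081 of 52390). The authors' comparison columns of the same table (mean, log2 fold change, its error, test statistic and P) were not used.

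Raw counts were fitted over 21844 genes passing filterByExpr with TMM factors by edgeR 4.0.16 (quasi-likelihood F-test, two-sided, no covariates) in R 4.3.3, and by DESeq2 1.42.0 as an alternative. Scripts were tested on simulated data. CPM are TMM-normalized. GC correction used spline offsets on GC content. The labels number the samples as separate mice. Totals were 42061721 to 54668294 counts, and counting error is small beside the spread between libraries (common biological coefficient of variation 0.313). Named pathway genes were the 3 called in each direction with the smallest P, or all where 5 or fewer were called. Members and lists were chosen with earlier results of these data known.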

Additional observations from a re-analysis of the deposited data

How the results depend on the processing

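In 13 alternatives Myt1l kept its sign and stayed between −1.38 and −1.19 on the log2 scale, and St18 between −1.39 and −0.65. With single libraries left out the ranges were −1.37 to −1.19 for Myt1l, −1.39 to −0.80 for St18, −0.24 to 0.06 for Myt1, −0.30 to −0.12 for Rest, 0.05 to 0.21 for Rcor1 and 0.01 to 0.30 for Rcor2. The GC correction turned Rcor2 to −0.14. The count of pathway genes called higher, 11, was 17 with DESeq2, 6 with the GC correction, 7 without controls 2 and 3 (chosen after seeing the data) and 7 to 19 with single libraries left out (19 without control 1 or without OE C, 7 without OE A or without OE B). The count called lower, 5, was 3 with the GC correction, 1 without controls 2 and 3 and 3 to 7 with single libraries left out (3 without OE A). Levels per kb depend on the transcript taken as length. By the mean transcript of each gene, control levels were 50.2 CPM per kb for Myt1l and 6.58 for Myt1. They were 5.94 for Rcor1, 5.33 for Rcor2, 4.24 for St18 and 1.44 for Rest. This length puts Myt1 above Rcor1, and in OE mice St18 above Rest, while the control mean of Myt1 was above that of Rcor2 by either length. The cause was not tested. No paired analysis was made, because no pairing of the sequenced mice is given.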
